A study of Mus musculus with 10 samples.

Results

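The lysyl oxidase family was followed in whole mouse lung after increased pulmonary flow (IPF). Its 5 members, Lox, Loxl1, Loxl2, Loxl3 and Loxl4, were taken by gene name from the 54532 genes of the deposited P30 table, where each had 1 entry, and all 5 passed the filter on low values. The study placed an aortocaval fistula, a connection between the abdominal aorta and the inferior vena cava, in wild type (WT) C57BL/6J pups on postnatal day 7 (P7) to raise blood flow through the lung. The 5 IPF samples came from mice given fistula surgery and the 5 sham samples from mice that had the same operation without the puncture. All were wild type, were operated on at P7 and were collected at P30, with snap-frozen whole lung as the tissue. The study used pups of both sexes. By sex-linked transcripts, all 5 IPF samples read as female and all 5 sham samples as male. The comparison of IPF with sham addresses how the transcripts of the enzymes that cross-link the lung matrix stood in lungs exposed to raised flow from early life.

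Lysyl oxidases are secreted, copper-dependent amine oxidases. They oxidize lysine side chains in collagen and tropoelastin, and the aldehydes that form then join into the covalent cross-links that give fibers their strength and elastic recoil. Lox and Loxl1 are made as proenzymes with a propeptide that is cut off outside the cell, whereas Loxl2, Loxl3 and Loxl4 carry scavenger receptor domains ahead of the same catalytic domain. In the mouse lung, much of the elastin of the alveolar walls is laid down after birth.

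The copper-binding stretch of the catalytic domain shows how the family divides. It was read from the coding sequence of the first listed transcript of each gene in the GENCODE M39 reference, and each stretch is 33 coding bases. Capitals mark the 20 bases that all 5 members, Lox included, have in common, and the stretches of 4 members run 5′ to 3′ as follows.
Loxl1: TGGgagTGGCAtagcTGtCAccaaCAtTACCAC
Loxl2: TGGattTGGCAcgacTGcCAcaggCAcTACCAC
Loxl3: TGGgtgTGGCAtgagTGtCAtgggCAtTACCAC
Loxl4: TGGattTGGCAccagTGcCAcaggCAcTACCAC
Lox and Loxl1 matched at 32 of the 33 bases, and Loxl2 and Loxl4 at 31. Every other pair matched at 21 to 25 bases, so Loxl3 stood about as far from Loxl2 as from Loxl1, with 25 matching bases in each case. The stretch began at coding base 838 in Lox, counted from the start codon, at 1426 in Loxl1, 1864 in Loxl2, 1804 in Loxl3 and 1816 in Loxl4. The later start in Loxl2 to Loxl4 goes with their longer coding sequences of 2262 to 2328 bases, against 1233 bases in Lox and 1821 bases in Loxl1.

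The depth recovered from the FPKM values (fragments per kilobase of gene length, scaled to library size) was 16250190 to 19026843 reads in IPF and 15483046 to 17818542 in sham. The tissue was checked by its markers, and Sftpc, the surfactant protein of alveolar type 2 cells, stood at 9437 to 16514 FPKM in every sample, while the summed liver and chondrocyte markers did not exceed 0.788 and 0.584 FPKM. Sham replicate 1 stood apart, with a mean Spearman correlation with the other samples of 0.912 where the other 9 had 0.929 to 0.932. The groups were also divided by sex-linked and clock genes. Xist, the RNA that coats the silenced X chromosome, was at 26.8 to 43.2 FPKM in IPF and 0.0301 to 0.0767 FPKM in sham. The Y-linked gene Ddx3y was at 0 FPKM in every IPF sample and at 14.3 to 21.4 FPKM in sham. By these genes the IPF samples read as female and the sham samples as male. The clock gene Dbp was at 1.74 to 3.49 FPKM in IPF and 23.2 to 29.3 FPKM in sham. No member lies on a sex chromosome, and for every result here surgery, sex and time of collection cannot be told apart.

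Loxl1 and Lox were the abundant members and Loxl4 the scarcest. Over the 10 samples the mean levels were 52.9 FPKM for Loxl1, 42.5 for Lox, 10.9 for Loxl2, 3.87 for Loxl3 and 1.04 for Loxl4. FPKM is scaled by gene length, so these levels can be set side by side. Loxl1 was above 95.8% of the tested genes and Loxl4 above 34.8%. The order of the means held in 8 of 10 samples, and in IPF replicate 5 and sham replicate 1 Lox came before Loxl1. Loxl1 and Lox, the first 2 in the order, overlapped within each group, whereas the ranges of Loxl2, Loxl3 and Loxl4 did not touch one another or those of the first 2.

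By limma on log2(FPKM + 0.1), 0 of the 5 members passed an adjusted p of 0.05, a limit that 5.85% of the 20448 tested genes passed. At an unadjusted p under 0.05 there were 3 members, Loxl1, Loxl3 and Loxl4, against 19.5% of tested genes. The limma voom test on the recovered reads also called 0 members, where 7.16% of genes passed, with Loxl1 and Loxl4 under an unadjusted 0.05 against 20.4% of genes. Besides fits without single samples, given with each gene, limma called Loxl4 under quantile normalization (5.83% of all genes), Loxl1 and Loxl4 with array weights (8.55%), and Loxl1 without IPF replicate 5 and sham replicate 1 together (7.38%), a choice made after seeing the data. In 1 member, Loxl3, the groups did not overlap, a separation found in 7.29% of genes. The fitted differences pointed to higher values in IPF for Lox and Loxl1 and to lower values for Loxl2, Loxl3 and Loxl4. In whole lung, fewer cells of a type and less RNA per cell cannot be told apart.

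**Figure D1:**
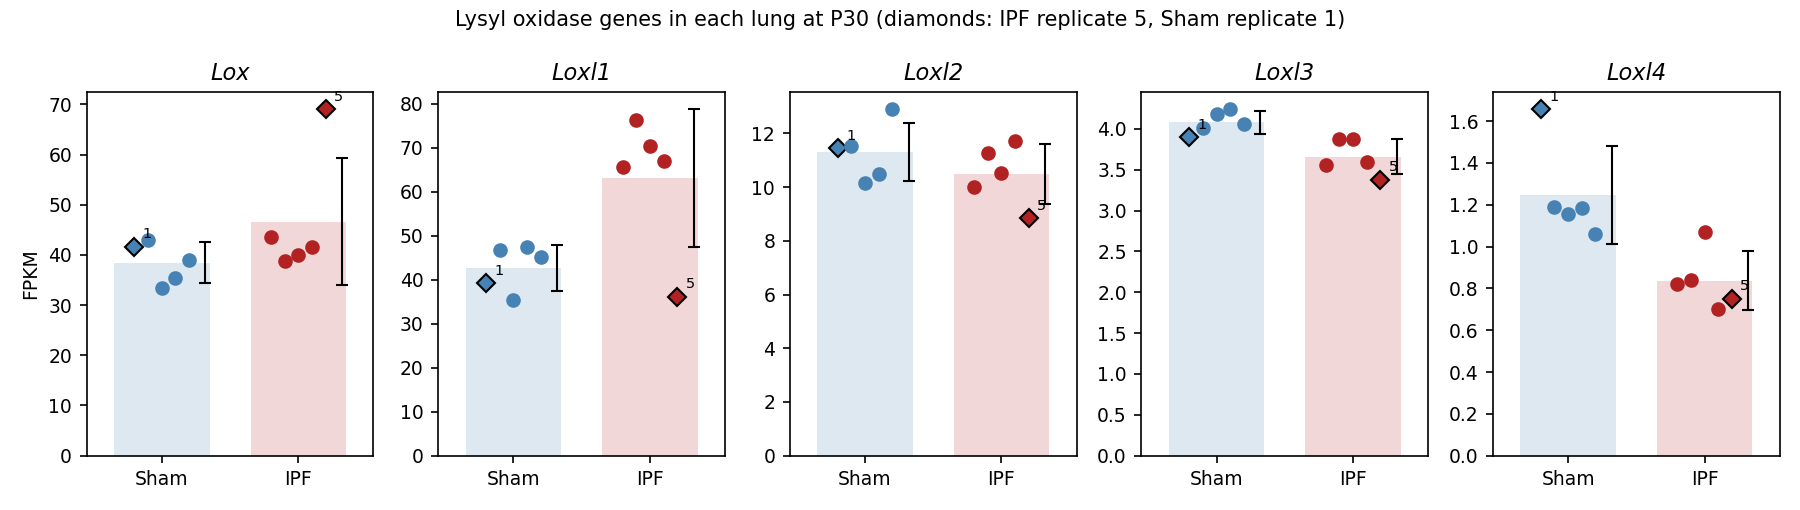
FPKM of the 5 lysyl oxidase genes in each of 5 sham and 5 IPF lungs, each panel with its own axis from 0. Bars are group means, error lines are 1 SD and points are samples, with diamonds for sham replicate 1 and IPF replicate 5. IPF replicate 5 lies above the other IPF samples for Lox, at 69.0 FPKM, and below them for Loxl1, at 36.1 FPKM.

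Loxl1 (ENSMUSG00000032334, GRCm38 chromosome 9, 58287738 to 58313186, minus strand) is the member tied to elastic fibers, which are not renewed normally in adult mice without it. Its levels in IPF replicates 1 to 5 were 65.5, 76.3, 70.3, 67.0 and 36.1 FPKM, and in sham replicates 1 to 5 they were 39.2, 46.6, 35.3, 47.3 and 45.0 FPKM. Thus 4 of 5 IPF samples were above every sham sample and the other was near the bottom of the sham range. The IPF mean was 63.1 ± 15.6 FPKM and the sham mean 42.7 ± 5.21 FPKM (here and below mean ± SD, n = 5 per group unless stated). On the log2 scale the fitted difference was 0.53, with a standard error of 0.18 and a 95% interval from 0.13 to 0.92. The limma adjusted p was 0.129, and the exact two-sided permutation test of this gene alone gave p = 0.0397.

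Without IPF replicate 5, the IPF mean of Loxl1 was 69.8 ± 4.81 FPKM (n = 4), and the log2 fold change was 0.71 with a standard error of 0.09. In that fit Loxl1 rose (adjusted p = 0.00138 by limma), and it was the 1 member called, against 7.88% of all genes. Leaving out any other sample left the adjusted p of Loxl1 above 0.05, with log2 fold changes from 0.44 up. Loxl1 had at least 1870 reads in each sample.

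Lox (ENSMUSG00000024529, GRCm38 chromosome 18, 52516069 to 52529867, minus strand) is the founding member and is needed for sound aortic and airway walls in newborn mice. It stood at 43.5, 38.9, 39.9, 41.5 and 69.0 FPKM in IPF replicates 1 to 5 and at 41.6, 43.0, 33.4, 35.4 and 39.0 FPKM in sham replicates 1 to 5. The 4 IPF samples other than replicate 5 ran from 38.9 to 43.5 FPKM, within or just above the upper part of the sham range. The means were 46.6 ± 12.7 and 38.5 ± 4.08 FPKM, a log2 fold change of 0.25 with a standard error of 0.15 and a 95% interval from −0.08 to 0.57 (adjusted p = 0.396 by limma). The exact permutation p was 0.159. Without IPF replicate 5, the IPF mean was 41.0 ± 2.02 FPKM and the fitted difference 0.10 (adjusted p = 0.556 by limma), so the size of the estimate rested largely on that sample.

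**Figure D2:**
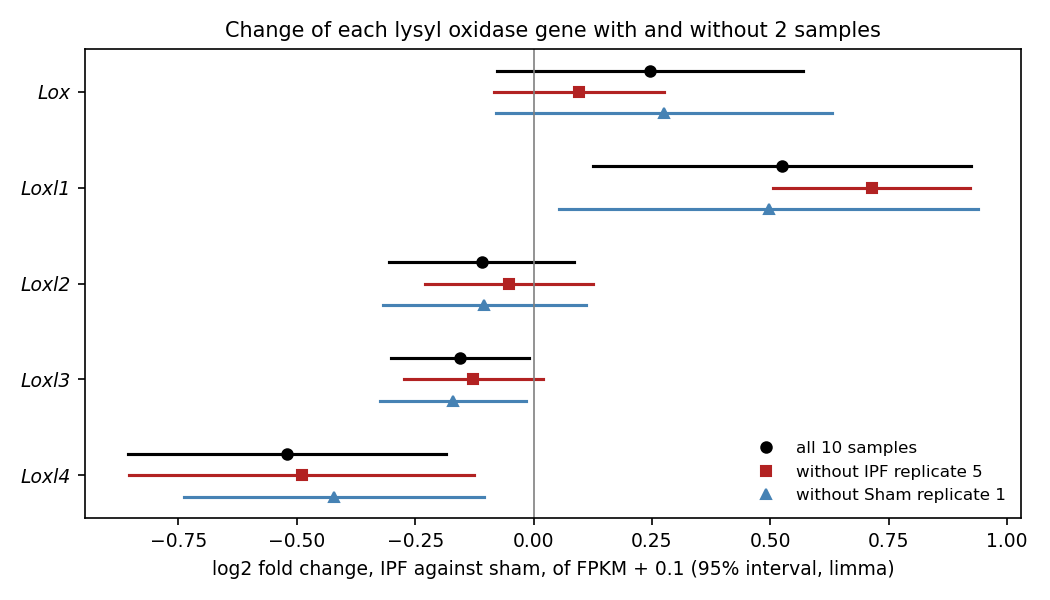
Log2 fold change of FPKM + 0.1, IPF against sham, with its 95% interval from limma for each member, in all 10 samples (circles), without IPF replicate 5 (squares) and without sham replicate 1 (triangles). The Loxl1 estimate is 0.53 in all samples and 0.71 without IPF replicate 5, and the Lox estimate is 0.25 and 0.10.

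IPF replicate 5 therefore differed from the rest of its group in opposite directions for the 2 abundant members. On the log2 scale it was 0.75 above the mean of the other IPF samples for Lox and −0.95 from that mean for Loxl1. Among the 13445 genes with a mean of at least 1 FPKM, 4.89% deviated in this sample by as much as Lox and 2.87% by as much as Loxl1. Its deviations in Loxl2, Loxl3 and Loxl4 were −0.29, −0.14 and −0.16, and 26.4% or more of genes deviated as far. The same sample was highest in the summed neutrophil markers, at 297 FPKM, where the other IPF samples had 51.3 to 72.7 FPKM and the sham samples 14.6 to 71.1 FPKM. Each of the 5 neutrophil markers was above 0 in every sample. Between the groups 0 of the 5 were called by limma or by voom, and 4 were at an unadjusted p under 0.05, where 19.5% of all tested genes were. All 5 had fitted differences toward higher values in IPF, with a median log2 fold change of 0.97. In Csf3r the groups did not overlap, as in 7.29% of tested genes. Its marker sums were also above those of the other IPF samples for fibroblasts, 181 against 141 to 173 FPKM, and for endothelium, 773 against 637 to 741 FPKM. Within the fibroblast list it was the highest IPF sample for Tcf21 and Pdgfra, at 81.3 and 60.7 FPKM, and the lowest for Lum, Col13a1 and Col14a1, at 2.24, 13.8 and 4.87 FPKM, so its markers lay in both directions. Its marker sums were below those of the other IPF samples for mesothelium, 108 against 115 to 140.3 FPKM, and for the leukocyte list, 19.1 against 21.2 to 25.2 FPKM. Of the mesothelium markers, Krt19 had its lowest IPF value in this sample, at 49.5 FPKM. Upk3b and Lrrn4, at 17.3 and 3.41 FPKM, were also below their IPF means of 20.4 and 4.68 FPKM, while Msln and Wt1 were above theirs. Of the leukocyte markers, the B cell gene Cd79a had its lowest IPF value, at 11.6 FPKM, while Ptprc and Cd3e were above their IPF means. Its clock genes also stood apart from the other IPF samples, with Arntl at 3.31 FPKM against 5.61 to 6.85 FPKM and Dbp at 3.49 FPKM against 1.74 to 2.17 FPKM. The part of these cells and of clock phase in the Lox and Loxl1 values was not tested.

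Loxl4 (ENSMUSG00000025185, GRCm38 chromosome 19, 42593982 to 42612813, minus strand) is a scavenger receptor domain member that acts on collagens. Its levels in IPF replicates 1 to 5 were 0.823, 0.840, 1.07, 0.703 and 0.751 FPKM, and those in sham replicates 1 to 5 were 1.66, 1.19, 1.15, 1.18 and 1.06 FPKM. In this gene 4 of 5 IPF samples were below every sham sample, and IPF replicate 3 was level with sham replicate 5. The means were 0.837 ± 0.140 and 1.25 ± 0.234 FPKM, with a log2 fold change of −0.52, a standard error of 0.15 and a 95% interval from −0.86 to −0.19. The limma adjusted p was 0.0740 and the exact permutation p was 0.0159.

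The values of Loxl4 rest on few reads, 54 to 85 in the IPF samples and 68 to 115 in the sham samples. Counting error alone gave sham replicate 1 a 95% Poisson interval of 1.37 to 1.99 FPKM, which overlapped that of sham replicate 2, 0.958 to 1.46 FPKM, but not that of sham replicate 5, 0.822 to 1.34 FPKM. Without sham replicate 1, the sample that stood apart over all genes, the sham mean was 1.15 ± 0.0609 FPKM (n = 4) and the fitted difference −0.42 (adjusted p = 0.137 by limma). Without IPF replicate 3, it was −0.60, and Loxl4 fell in that fit (adjusted p = 0.0427 by limma). At its low level the size of the estimate depended on the pseudocount, and with a pseudocount of 1 it was −0.29 (adjusted p = 0.0783 by limma).

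Of the members, Loxl4 was matched in the RefSeq promoter table used here, and Lox, Loxl1, Loxl2 and Loxl3 were not. The promoter of Loxl4 is shown beside its values for the motifs it holds. The RefSeq start used for it differs slightly from the Loxl4 span given above, whose end at 42612813 lies just inside the window. The 250 bases before the gene start, from RefSeq on GRCm38.p6, lie at chr19:42612807-42613056 on the minus strand and read 5′ to 3′ as follows, with capitals for 2 motifs, the GC box GGGCGG and the SMAD half-site CAGAC.
Loxl4 promoter: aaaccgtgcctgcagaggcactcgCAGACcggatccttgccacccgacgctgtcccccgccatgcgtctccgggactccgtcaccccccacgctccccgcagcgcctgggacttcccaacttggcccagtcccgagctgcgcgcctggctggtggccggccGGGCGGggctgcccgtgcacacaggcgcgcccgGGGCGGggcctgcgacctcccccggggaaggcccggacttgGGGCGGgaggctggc
The window was 76% G and C, and 96.7% of the 32851 promoter windows of this length were lower, with a median of 52.4%. The GC box began 89, 56 and 15 bases before the start, and 32.7% of promoters held it on either strand. The SMAD half-site began at 226 bases before the start, and 42.2% of promoters held it. The letters of the TATA box (TATAAA, 12.4% of promoters), the CCAAT box (CCAAT, 33.8%), the E-box of the clock factors (CACGTG, 6.02%), the hypoxia response core (ACGTG, 16.6%) and the AP-1 site (TGANTCA, 6.75%) were not in this window on either strand. The hypoxia core lies within the E-box letters, so those 2 searches overlap. No methylation, binding or accessibility was measured here.

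Loxl3 (ENSMUSG00000000693, GRCm38 chromosome 6, 83034173 to 83052562, plus strand) is a scavenger receptor domain member needed for palate and spine formation in mice. Its levels were 3.56, 3.87, 3.87, 3.60 and 3.38 FPKM in IPF replicates 1 to 5 and 3.90, 4.01, 4.18, 4.24 and 4.06 FPKM in sham replicates 1 to 5. All 5 IPF samples were below all 5 sham samples, though the highest IPF sample and the lowest sham sample differed by less than the SD of either group. The means were 3.66 ± 0.214 and 4.08 ± 0.135 FPKM, a log2 fold change of −0.15 with a standard error of 0.07 and a 95% interval from −0.30 to −0.01. The exact permutation p was 0.00794, the smallest that 5 against 5 samples can give, while the limma adjusted p was 0.224. In fits without single samples the limma adjusted p ran from 0.197 to 0.343. Loxl3 shares 1297 bases of its span with Htra2, a mitochondrial protease gene on the opposite strand at 6.87 ± 0.490 FPKM in IPF and 6.48 ± 0.681 in sham (adjusted p = 0.616 by limma). Whether strand was used in counting is not given in the sources used here, so reads of the 2 genes in the shared bases cannot be told apart.

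Loxl2 (ENSMUSG00000034205, GRCm38 chromosome 14, 69609068 to 69695834, plus strand) cross-links collagen IV in basement membranes. It stood at 10.02, 11.3, 10.5, 11.7 and 8.85 FPKM in IPF and at 11.4, 11.5, 10.2, 10.5 and 12.9 FPKM in sham, each in the order of replicates 1 to 5. The groups overlapped through most of their ranges. The means were 10.5 ± 1.12 and 11.3 ± 1.07 FPKM, a log2 fold change of −0.11 with a standard error of 0.09 (adjusted p = 0.547 by limma, exact permutation p = 0.294). Its 95% interval, −0.30 to 0.08, leaves room for a change in either direction. Without IPF replicate 5 the Loxl2 estimate was −0.05 (adjusted p = 0.767 by limma). The genes that overlap Loxl2, among them Gm27177 on the opposite strand, were at no more than 0.0174 FPKM.

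The levels of the 5 genes added up to more in IPF. The summed FPKM was 118 to 131 in IPF, with a mean of 125 ± 4.70, and 84.2 to 106 in sham, with a mean of 97.8 ± 8.33, and the groups did not overlap. This sum is given as a description, since it was formed over members picked together. In IPF replicate 5 the sum was 118 FPKM, against 123 to 131 FPKM in the other IPF samples, although its largest parts were exchanged. Loxl1 and Lox together made up 88.0% ± 0.712 of the sum in IPF, with 89.0% in IPF replicate 5, and 82.9% ± 1.10 in sham.

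**Figure D3:**
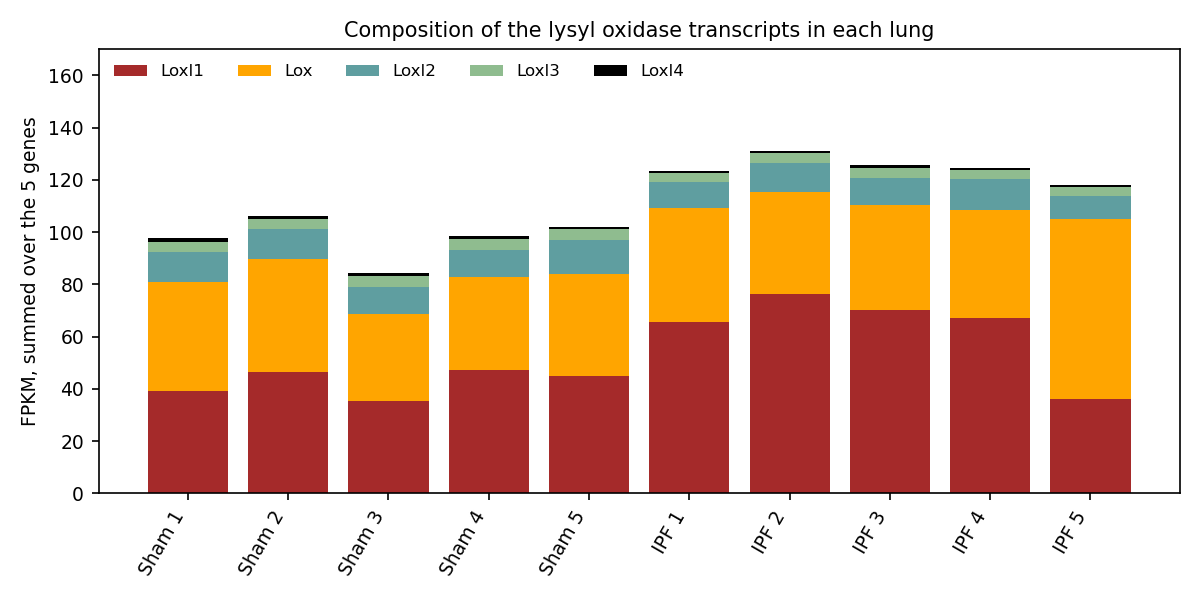
Stacked FPKM of the 5 lysyl oxidase genes in each lung, on 1 linear axis from 0. All 5 IPF columns, at 118 to 131 FPKM, are taller than the 5 sham columns, at 84.2 to 106 FPKM, and in IPF replicate 5 the Lox section makes up 58.4% of the column.

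Within the sum, Loxl1 made up 50.3% ± 11.2 in IPF and 43.6% ± 2.94 in sham. The share of Lox was 37.7% ± 11.8 in IPF and 39.3% ± 2.49 in sham. In IPF replicate 5 these shares were 30.6% for Loxl1 and 58.4% for Lox, and in the other IPF samples they were 53.1 to 58.2% and 29.6 to 35.2%. The ratio of Loxl1 to Lox was 1.51, 1.96, 1.76, 1.61 and 0.524 in IPF replicates 1 to 5 and 0.942, 1.08, 1.06, 1.34 and 1.15 in sham replicates 1 to 5. Hence in 4 IPF samples the ratio was above the whole sham range and in the other it was below it.

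The shares of the scavenger receptor domain members were all lower in IPF, without overlap. In FPKM itself only Loxl3 separated the groups, as 7.29% of tested genes did. Loxl2 and Loxl4 overlapped in FPKM, with log2 fold changes of −0.11 and −0.52. Loxl2 made up 8.40% ± 0.703 in IPF and 11.6% ± 0.832 in sham, Loxl3 2.93% ± 0.0884 and 4.20% ± 0.468, and Loxl4 0.671% ± 0.106 and 1.28% ± 0.260. A share falls when the other parts of a sum grow, so these differences include the higher Loxl1 and Lox values. Shares carry no p here for the same reason as the sum.

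The genes that act with the lysyl oxidases were taken as 45 partners in 5 lists, of which 44 could be tested. The lists were chosen with earlier results of these data known, so their rates are a description and not a test of the lists. Of these, 6 rose and 1 fell by limma, where 3.71% of all tested genes rose and 2.14% fell, and 17 (38.6%) were at an unadjusted p under 0.05, against 19.5% of all tested genes. The median log2 fold change of the partners was −0.07, against 0.00 over all tested genes. The groups did not overlap in 6 of the 44 (13.6%), against 7.29% of all tested genes.

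Among the substrates, 1 of 8 rose and 0 fell. Eln, which encodes tropoelastin, was at 206, 257, 229, 195 and 97.7 FPKM in IPF replicates 1 to 5 and at 116, 109, 80.0, 97.5 and 106 FPKM in sham replicates 1 to 5. As with Loxl1, 4 IPF samples were above all sham samples and IPF replicate 5 was within the sham range. Eln rose from 102 ± 13.7 to 197 ± 60.5 FPKM, by 0.89 on the log2 scale, with a standard error of 0.23 (adjusted p = 0.0408 by limma). The call was lost when any of 9 samples was left out, with adjusted p up to 0.0997, and without IPF replicate 5 the estimate was 1.13 (adjusted p = 0.000385 by limma). Over all 21 alternatives the Eln call was lost in 13, among them quantile normalization and the replicate block. The other 7 substrates, fibrillar and basement membrane collagen chains, were not called. Col3a1, the chain of type III collagen, was at 149 ± 35.0 FPKM in IPF and 156 ± 14.7 FPKM in sham, and Col1a1, the main chain of type I collagen, at 93.1 ± 28.5 and 104 ± 14.2 FPKM. IPF replicate 5 was the lowest IPF sample in both, at 97.9 and 57.6 FPKM. The median log2 fold change of the 8 substrates was −0.10.

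Among the regulators, 3 of 8 rose and 0 fell, and their median log2 fold change was 0.09. Tgfb3, a TGF-β ligand, was at 19.3, 25.3, 26.2, 22.8 and 15.3 FPKM in IPF replicates 1 to 5 and between 10.7 and 13.6 FPKM in the sham samples. The groups did not overlap, and IPF replicate 5 was again the lowest of its group. The fitted difference was 0.81 on the log2 scale, with a standard error of 0.13 (adjusted p = 0.00597 by limma), and the call held in all 21 alternatives. Tgfb2, another ligand, was at 9.98 ± 0.456 FPKM in IPF and 7.92 ± 1.00 FPKM in sham (log2 fold change 0.34, adjusted p = 0.0345 by limma). Smad3, a transcription factor that carries the signal, was at 11.6 ± 1.06 and 9.16 ± 0.881 FPKM (log2 fold change 0.34, adjusted p = 0.0343 by limma). The calls of Tgfb2 and Smad3 were each lost in 8 of 10 fits that left out a sample, with adjusted p up to 0.0867 and 0.0865. Over all 21 alternatives they were lost in 12 and 11. The 5 regulators that were not called were Tgfb1, Smad2, Smad4, Hif1a and Epas1.

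Copper reaches the lysyl oxidases through the transporters Slc31a1 and Atp7a and the chaperone Atox1, and 1 of the 5 copper genes was called. Atp7b, a copper-transporting ATPase best known from hepatocytes, was at 6.83, 4.86, 7.81, 6.89 and 11.1 FPKM in IPF replicates 1 to 5 and at 18.4, 12.4, 15.1, 13.6 and 14.6 FPKM in sham replicates 1 to 5. Every IPF sample was below every sham sample. Atp7b fell by 1.01 on the log2 scale, with a standard error of 0.18 (adjusted p = 0.00874 by limma), and the call held in all 21 alternatives. Atp7a, which loads copper onto secreted enzymes, was at 6.69 ± 1.01 FPKM in IPF and 6.80 ± 1.71 FPKM in sham (adjusted p = 0.996 by limma).

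**Figure D4:**
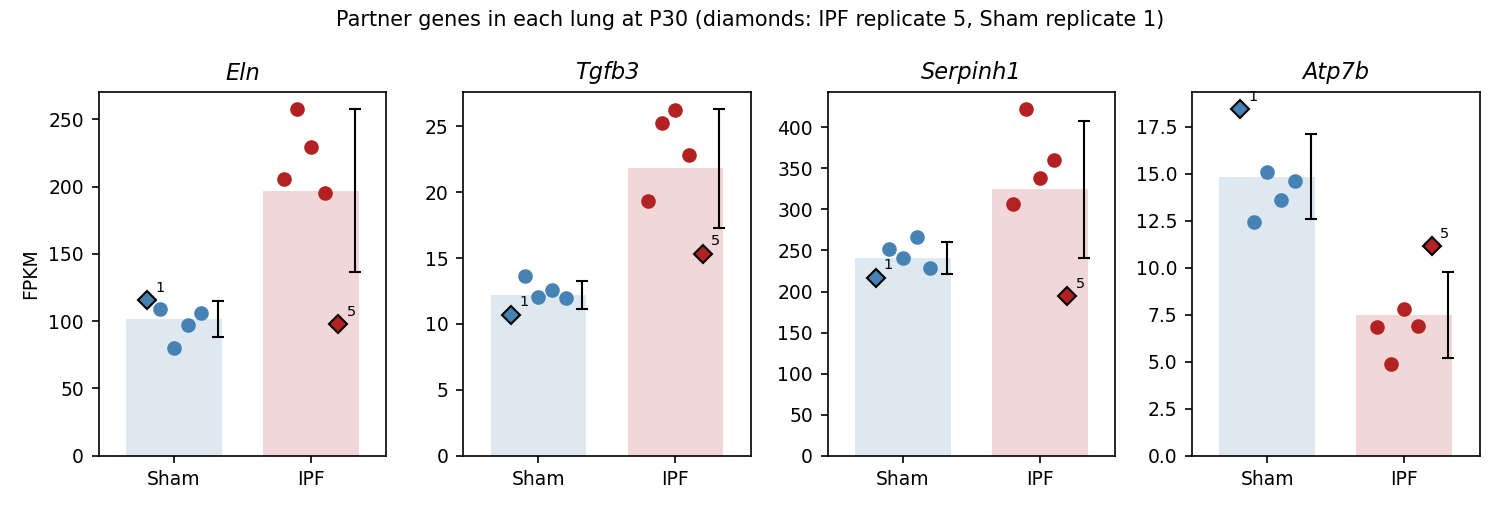
FPKM of 4 partner genes in each of 5 sham and 5 IPF lungs, each panel with its own axis from 0. Bars are group means, error lines are 1 SD and points are samples, with diamonds for sham replicate 1 and IPF replicate 5. In Eln, Tgfb3 and Serpinh1 IPF replicate 5 is the lowest IPF sample, and in Atp7b it is the highest, at 11.1 FPKM.

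In the list of processing and scaffold genes, 11 of 12 could be tested and 1 rose, a gene that acts on procollagen. Tll2 had at most 1 read in a sample. Pcolce2, an enhancer of procollagen processing, was at 109 ± 10.9 FPKM in IPF and 86.2 ± 5.49 FPKM in sham, without overlap (log2 fold change 0.33, standard error 0.08, adjusted p = 0.0302 by limma). That call was lost in 6 of 10 fits that left out a sample, with adjusted p up to 0.0783, and in 10 of all 21 alternatives, with adjusted p up to 0.117 under quantile normalization. Bmp1, the protease that frees the active enzymes from their propeptides, was not called, at 9.25 ± 0.997 FPKM in IPF and 10.8 ± 0.704 FPKM in sham (adjusted p = 0.132 by limma). The elastic fiber scaffolds Efemp2 and Fbln5 were not called either, at 17.3 ± 2.11 and 33.4 ± 1.89 FPKM in IPF against 20.5 ± 1.56 and 33.0 ± 1.86 FPKM in sham. The median log2 fold change of the list was −0.07.

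In the list of other collagen modification and cross-linking, 1 of 12 genes rose. P4ha1, a subunit of the prolyl hydroxylase that stabilizes the collagen helix, was at 39.2, 43.1, 37.3, 45.3 and 34.2 FPKM in IPF replicates 1 to 5 and at 30.3 to 32.1 FPKM in the sham samples. The groups did not overlap, and the log2 fold change was 0.36 with a standard error of 0.07 (adjusted p = 0.0153 by limma). The call held in all 21 alternatives. Serpinh1, the collagen chaperone, was at 307, 422, 338, 361 and 195 FPKM in IPF replicates 1 to 5 and at 217 to 266 FPKM in sham (log2 fold change 0.39, adjusted p = 0.248 by limma). IPF replicate 5 was below every sham sample in this gene, and without it the estimate was 0.56 (adjusted p = 0.00832 by limma). Serpinh1 is named for this sample after its values were seen. The lysyl hydroxylases Plod1, Plod2 and Plod3, whose hydroxylysines take part in the cross-links, were not called, with log2 fold changes of 0.13, −0.09 and −0.03. The list's median was −0.08.

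Cell markers that could move with these genes were measured in 15 lists of 69 genes, 62 of them tested, and 4 rose and 1 fell, where 3.71% of all tested genes rose and 2.14% fell. These lists too were chosen with earlier results of these data known. Fibroblasts and smooth muscle cells are the usual sources of the lysyl oxidases. In the fibroblast list 2 of 7 markers rose, Pdgfra by a log2 fold change of 0.35 (adjusted p = 0.0212 by limma) and Lum, a collagen-binding proteoglycan, by 1.09 (adjusted p = 0.0415 by limma), and the summed level was 141 to 181 FPKM in IPF and 145 to 157 FPKM in sham. The other 5 fibroblast markers were not called, with log2 fold changes of 0.18 for Dcn and Col13a1, −0.24 for Tcf21, −0.22 for Col14a1 and −0.06 for Pi16, and the list median was 0.18. In the smooth muscle list 0 of 7 were called by limma or by voom, 1 of them at an unadjusted p under 0.05, with sums of 119 to 240.5 and 146 to 187 FPKM. In the pericyte list 1 of 4 fell, Cspg4, with a log2 fold change of −0.43 (adjusted p = 0.0173 by limma), and the sums were 163 to 205 and 153 to 175 FPKM. The other 3 pericyte markers were not called and had log2 fold changes of 0.19 (Pdgfrb), 0.27 (Cox4i2) and 0.02 (Higd1b), with a list median of 0.10. The leukocyte list rose in 2 of 3, Ptprc and Cd79a, with sums of 19.1 to 25.2 FPKM in IPF and 9.52 to 14.1 FPKM in sham. The remaining 11 lists, for endothelium, mesothelium, cartilage, alveolar, ciliated and club cells, macrophages, neutrophils, heart muscle, fat and liver, had 0 of 41 tested markers called by limma, with 8 at an unadjusted p under 0.05, where 19.5% of all tested genes were, and 2 called by voom. No list had a marker at 0 in all samples. The part of these cells in the lysyl oxidase values was not tested.

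The genes most like each member over the 10 samples were ranked by Pearson's r of log2(FPKM + 0.1) among 13445 genes, as a description in which all points share library and group. Nearest to Loxl1 were St8sia2, a sialyltransferase (r = 0.97, Spearman's rho = 0.93), Tmem119, a membrane protein of bone-forming cells and microglia (r = 0.97, rho = 0.96), and Ciita, the transactivator of MHC class II genes (r = 0.96, rho = 0.88). Their r without IPF replicate 5 was 0.97, 0.98 and 0.96. Tmem119 was at 24.9 FPKM in IPF replicate 5 and at 46.8 to 58.4 FPKM in the other IPF samples, the split seen in Loxl1.

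The genes nearest to Lox followed IPF replicate 5. Slfn4, a schlafen gene of myeloid cells (r = 0.95, rho = 0.81), was at 13.8 FPKM there, at 0.742 to 1.60 FPKM in the other IPF samples and at 0.318 to 0.826 FPKM in sham, and its r without that sample was 0.73. Nek7, a kinase of the inflammasome, and Ppm1b, a protein phosphatase, had r of 0.93 and 0.92, and 0.75 and 0.85 without it.

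Nearest to Loxl2 were Zdhhc2, a palmitoyltransferase, Nup205, a nuclear pore component, and Brinp1, with r of 0.96, 0.91 and 0.88. Loxl3 was closest to Gsg1l, Trpt1 and Fkbp10, with r of 0.96, 0.96 and 0.95. Fkbp10, a collagen prolyl isomerase, is also in the list of collagen modification, where it stood at 13.3 ± 1.03 FPKM in IPF and 15.9 ± 1.02 FPKM in sham (adjusted p = 0.0524 by limma). Loxl4 was closest to Ppp1r12b, a regulatory subunit of myosin phosphatase, Atxn1 and Gm43437, with r of 0.95, 0.95 and 0.94. Of these 15 nearest genes Ppp1r12b was the 1 called between the groups, at 5.28 FPKM in IPF and 6.89 FPKM in sham (adjusted p = 0.0311 by limma).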

How the data were processed

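RNA from snap-frozen whole lung of 10 mice was sequenced. The authors used Fastp for trimming, HISAT2 for alignment and StringTie for quantification, and the deposited table held an FPKM value for each of 54532 genes in each sample. Its gene positions were those of GRCm38, although the methods name GRCm39, and the library kit differs between the labels and the methods. Multiplied by gene length, 100% of the FPKM values were whole multiples of the worth of 1 read in their sample (tolerance 0.001), which gave the reads behind each value. Poisson intervals cover counting error only.

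Genes with a mean of at least 0.1 FPKM were tested in R 4.3.3 with the moderated linear model of limma 3.58.1, using a variance trend, on log2(FPKM + 0.1). IPF was compared with sham without covariates, and p-values were adjusted over all 20448 genes by Benjamini-Hochberg. The threshold for a call was an adjusted p of 0.05, and fold changes on this scale understate those of low genes. The study used DESeq2, which was not run here, since the deposited unit is FPKM, and the recovered reads were tested with limma voom as an alternative. The permutation tests were exact and two-sided and covered all 252 assignments of 5 of 10 samples. P-values set the group difference against the spread between these samples, and the labels do not give litters. Tables were prepared in Python 3.11.15.

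The members, the 5 partner lists and the 15 marker lists were chosen with earlier results of these data known. From each partner list the called genes are named, or the 2 with the smallest p where none was called. Genes that were not called and are named for their role were added after their values were seen. The 3 genes most like each member were taken at a mean of at least 1 FPKM. The shares of the summed FPKM were planned with exact tests, which are not printed because a share is a score over the members.

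The alternatives were pseudocounts of 1 and 0.01, no filter, a mean of at least 1 FPKM, scaling by median of ratios, quantile normalization, array weights, a fit with no variance trend, a block for the replicate number, limma voom on recovered reads and leaving out each sample. Leaving out IPF replicate 5 and sham replicate 1 together was chosen after seeing the data.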

Additional observations from a re-analysis of the deposited data

Results flagged for a closer look

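Of 22 groups of 5 samples that were examined, 5 held a sample far from the others, where chance alone gives about 1 in 20. IPF replicate 5 stood above the other IPF samples for Lox, at 69.0 FPKM, and below them for Loxl1, at 36.1 FPKM. As a result its shares of the summed family FPKM stood apart too, 58.4% for Lox and 30.6% for Loxl1, so these 4 are not independent of one another. Sham replicate 1 stood above the other sham samples for Loxl4, at 1.66 FPKM from 115 reads.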

How the results depend on the processing

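No member's log2 fold change turned direction in any of the 21 alternatives. The count of members called was 0 in all samples, 1 under quantile normalization (Loxl4, log2 fold change −0.52, with 5.83% of all genes called), 2 with array weights (Loxl1, 0.58, and Loxl4, −0.49, with 8.55% of all genes), 1 without IPF replicate 5 and sham replicate 1 together (Loxl1, 0.69, with 7.38% of all genes), and 0 to 1 when single samples were left out. Those single-sample ranges were 0.10 to 0.30 for Lox, 0.44 to 0.71 for Loxl1, −0.15 to −0.05 for Loxl2, −0.18 to −0.13 for Loxl3 and −0.60 to −0.42 for Loxl4. Among those fits Loxl1 was called without IPF replicate 5 and Loxl4 without IPF replicate 3. The cause of these changes was not tested. With a pseudocount of 1 the log2 fold change of Loxl4 was −0.29 against −0.52, and with array weights that of Loxl2 was −0.06 against −0.11. Over all genes, 1196 were called, and 775 (without IPF replicate 4) to 1620 (without IPF replicate 5) without single samples. Partner genes called numbered 7, but 3 with no filter and 3 with no variance trend, and 3 to 9 without single samples. The difference in the Lox share, −1.66 percentage points, ran from −6.85 (without IPF replicate 5) to 0.351 (without IPF replicate 2), and that of Loxl1, 6.72, from 4.75 to 11.6.

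Samples with the same replicate number deviated together with r of −0.0204 to 0.0953, so the numbers were not taken to pair the samples. In a limma fit with a replicate block, the adjusted p was 0.324 for Lox, 0.142 for Loxl1, 0.587 for Loxl2, 0.264 for Loxl3 and 0.116 for Loxl4, with 0 members, 5 partner genes and 1045 genes called in all. Loxl4 had the fewest reads of the members, 54 to 115 per sample.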
